A study of Mus musculus with 6 samples.

Results

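The genes described here are those of cholesterol and fatty acid synthesis in the mouse optic nerve, chosen as a list of 37 named genes with their enzymes' steps and regulators. Of these, 30 had a measured probe, out of 6616 named genes, and all 30 were detected on all 6 arrays. Acat2 and Acsl1 had no annotated probe, and Fdft1, Tm7sf2, Sc5d, Acsl3 and Srebf1 had no value in the deposited series table that gives probes their names, so these 7 are named only. The measured genes were 6 of 7 for the mevalonate steps, 8 of 11 for the steps from squalene to cholesterol, 5 of 5 for acetyl-CoA supply and fatty acid synthesis, 4 of 4 for elongation, 4 of 4 for desaturation, 1 of 3 for activation and 2 of 3 for regulators. Each gene is given by its brightest probe, as a normalized log2 signal. Levels are compared only within a probe, except in choosing the brightest, in ranks and beside an array's median raw signal.

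Myelin, the sheath that oligodendrocytes wrap around axons, is rich in cholesterol and in very long chain and unsaturated fatty acids, and most brain cholesterol is made in the nervous system itself. Acetyl-CoA is built through mevalonate and squalene into cholesterol, or through malonyl-CoA into palmitate, which elongases lengthen and desaturases provide with double bonds. The transcription factors SREBP-1 and SREBP-2 switch on many of these genes when sterols are low, and INSIG proteins hold them back when sterols are high.

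The study addressed how leukemia inhibitory factor (LIF), a cytokine of the interleukin-6 family, bears on oligodendrocyte development and myelination. RNA came from whole, untreated optic nerves of mice labelled male, either LIF-/- on the CD1 background or CD1 wild type, at postnatal days 10, 14 and 35, the last being adult. Each group was 1 pool on 1 array, with 10 nerves at day 10, 8 at day 14 and 4 at day 35, and the sources used here do not give the number of animals behind a pool. A difference at a single age therefore has no replicate and is given as a value with no test. The spread in the tests below is that of single pools around a model and holds no second pool of any group.

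Between 12222 and 13292 probes were detected per array, and median raw signals ran from 51.8 to 61.9, lowest in the day 14 knockout. As a check of the labelled tissue, 14 or 15 of 15 measured myelin genes were detected on each array. Days 10 and 14 shared 1 slide and day 35 had another, so genotype differences lie within a slide, while age and slide cannot be told apart at day 35. The library labelled as the male day 35 knockout had neither measured Y-linked gene above background, with raw signals of 39.5 for Eif2s3y and 37.5 for Kdm5d, against 72.3 and 141.0 in the day 35 wild type. Eif2s3y was also at background in the day 10 wild type, at 55.4 against 396.4 in the knockout, while Kdm5d was detected in both. The day 35 knockout pool also carried skeletal muscle RNA, with 12 of 12 muscle genes above the wild type and a summed raw signal of 8149 against 651. Both day 10 pools gave muscle signal too, at 4498 in the wild type and 4151 in the knockout, with 12 and 11 genes detected. The day 14 sums were 1686 and 595.

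The promoters of 6 measured genes are shown, chosen for their values or motifs. Cyp51, Msmo1, Mvk and Insig1 carried the day 10 difference, all but Hmgcs1 passed the test for age, and Hmgcs1 held the sterol regulatory element. The promoters cover the 250 bases before the start listed by RefSeq on GRCm38.p6, 5′ to 3′ on the strand of the gene. Capitals mark 4 motifs found on either strand. Those are the sterol regulatory element TCACNCCAC, bound by SREBPs, the E box CACGTG, the CCAAT box CCAAT, bound by NF-Y, and the GC box GGGCGG, bound by Sp1.
Hmgcs1, chr13:119690101-119690350, plus strand: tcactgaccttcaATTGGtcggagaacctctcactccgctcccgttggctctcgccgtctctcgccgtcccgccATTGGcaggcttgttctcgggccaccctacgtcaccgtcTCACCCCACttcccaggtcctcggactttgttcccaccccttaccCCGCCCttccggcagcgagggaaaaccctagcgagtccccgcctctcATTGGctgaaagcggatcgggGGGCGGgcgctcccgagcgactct
Mvk, chr5:114444019-114444268, plus strand: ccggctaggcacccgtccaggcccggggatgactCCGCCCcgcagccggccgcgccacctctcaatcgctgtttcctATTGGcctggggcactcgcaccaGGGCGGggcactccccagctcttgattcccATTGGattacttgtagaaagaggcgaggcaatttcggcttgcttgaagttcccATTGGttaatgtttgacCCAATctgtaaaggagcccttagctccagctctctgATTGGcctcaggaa
Mvd, chr8:122443423-122443672, minus strand: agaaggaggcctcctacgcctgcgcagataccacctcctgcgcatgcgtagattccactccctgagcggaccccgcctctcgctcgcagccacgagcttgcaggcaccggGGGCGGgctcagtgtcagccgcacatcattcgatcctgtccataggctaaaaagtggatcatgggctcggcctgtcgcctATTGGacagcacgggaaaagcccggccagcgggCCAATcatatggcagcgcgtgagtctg
Cyp51, chr5:4104698-4104947, minus strand: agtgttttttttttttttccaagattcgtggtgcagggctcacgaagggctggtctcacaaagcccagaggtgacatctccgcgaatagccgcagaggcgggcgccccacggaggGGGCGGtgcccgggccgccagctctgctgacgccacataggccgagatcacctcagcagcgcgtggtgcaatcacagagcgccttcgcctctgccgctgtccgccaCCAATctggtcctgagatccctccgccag
Msmo1, chr8:64733579-64733828, minus strand: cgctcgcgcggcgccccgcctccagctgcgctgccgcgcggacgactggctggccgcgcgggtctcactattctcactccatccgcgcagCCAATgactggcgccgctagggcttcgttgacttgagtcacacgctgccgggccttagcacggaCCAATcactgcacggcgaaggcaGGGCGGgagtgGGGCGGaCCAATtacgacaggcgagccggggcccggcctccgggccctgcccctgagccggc
Insig1, chr5:28071162-28071411, plus strand: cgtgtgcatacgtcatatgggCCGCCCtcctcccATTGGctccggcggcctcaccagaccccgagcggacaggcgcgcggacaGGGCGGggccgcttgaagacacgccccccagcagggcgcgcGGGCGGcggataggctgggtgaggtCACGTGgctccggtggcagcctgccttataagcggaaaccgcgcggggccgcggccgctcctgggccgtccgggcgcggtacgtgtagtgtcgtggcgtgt

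In these 6 windows no match overlapped another. The sterol regulatory element stood 137 to 129 bases before the start of Hmgcs1, and the E box 101 to 96 bases before that of Insig1. Mvk held 5 CCAAT boxes and Hmgcs1 and Msmo1 3 each. Of the 30 measured genes, 25 were in the promoter table; Fdps, Sqle, Scd1, Scd2 and Fads1 were not. A CCAAT box was present before at least 1 listed start of 18 of the 25, or 72.0%, against 37.5% of all 27025 genes in the table counted the same way. The GC box was present in 19 (76.0%, against 35.4%), the E box in 4 (Dhcr7, Elovl5, Hsd17b7 and Insig1, against 6.86%) and the sterol regulatory element in 1 (Hmgcs1, against 1.22%). Of all 32851 listed promoters taken singly, 33.8% held a CCAAT box, 32.7% a GC box, 6.02% an E box and 1.05% the sterol regulatory element. The 25 genes were detected on all 6 arrays, while the genes beside them were counted whether detected or not. Each motif was searched only in the form given above, so a sterol regulatory element of other letters was not counted. A match of letters is a description of the window and was not set against the arrays.

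At day 10 most of the synthesis genes gave lower signals in the knockout nerve. Of the 30 genes, 28 were below 0, knockout minus wild type, where 50.9% of all 13827 tested probes were, 2 were above, against 49.0%, and the median difference was -0.42 log2 units, against -0.01 over all probes. The knockout was lower by over 1.5-fold for 12 of the 30, against 6.94% of all probes, and higher by that much for none, against 6.90%. These 12 were Elovl1, Dhcr7, Cyp51, Acss2, Fdps, Msmo1, Insig1, Ebp, Aacs, Mvk, Pmvk and Scd1. Without normalization between arrays, which moved the median of all probes to 0.13 at this age and to -0.21 at day 14, 4 of the 30 were lower by over 1.5-fold, and the members' median was -0.40 relative to that of all probes. All 14 measured sterol enzymes were lower, with a median of -0.54, and 12 of 14 fatty acid enzymes, with a median of -0.25. Without normalization these medians were -0.36 and -0.08, and 12 of the 14 sterol enzymes and 21 of all 30 members were below 0. At that setting 27 of the 30 were below the median of all probes. In bulk tissue, fewer cells of a type and less RNA per cell cannot be told apart.

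**Figure D1:**
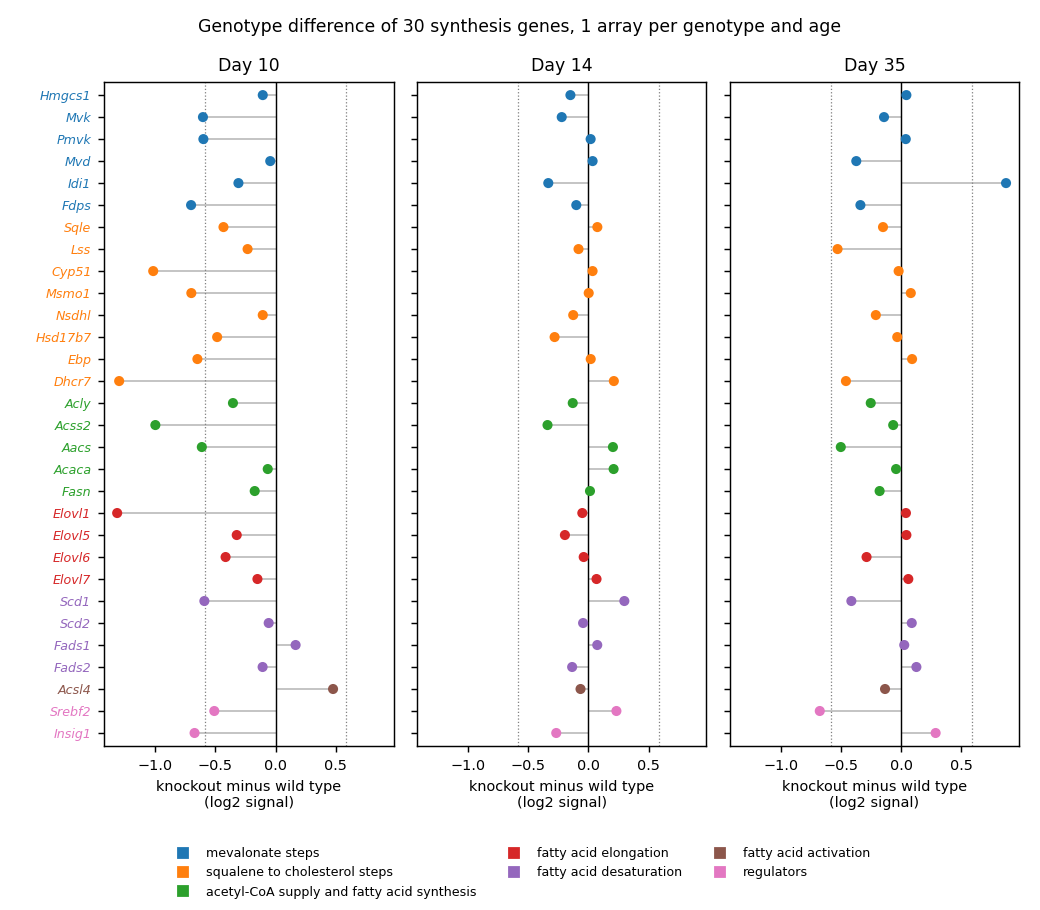
Knockout minus wild-type difference in normalized log2 signal (horizontal axis) for the 30 measured genes (rows, coloured by step) at days 10, 14 and 35, with 1 array per genotype and age and dotted lines at a 1.5-fold difference. At day 10, 28 of 30 points lie below 0 and 12 below the dotted line, while at day 14 none passes either dotted line.

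The mevalonate enzymes turn acetyl-CoA into isoprenoid units. Fdps, which makes farnesyl diphosphate, read 12.002, 12.13 and 11.60 at days 10, 14 and 35 in the wild type and 11.30, 12.03 and 11.26 in the knockout. The knockout was thus lower at each age, by 1.63-fold at day 10 and with differences of -0.10 and -0.34 log2 units later. For Mvk, mevalonate kinase, the wild type gave 7.20, 7.37 and 6.02 and the knockout 6.59, 7.15 and 5.88. Pmvk, the next kinase, gave 8.71, 8.76 and 7.73 in the wild type and 8.12, 8.78 and 7.77 in the knockout. Both kinases were 1.52-fold lower in the knockout at day 10, and Pmvk was within 0.04 log2 units of the wild type at the other ages.

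Mvd, the decarboxylase that yields isopentenyl diphosphate, differed little between genotypes at day 10, with 8.24 for the wild type and 8.19 for the knockout, and then read 8.90 and 8.94 at day 14 and 7.61 and 7.24 at day 35. The levels of Mvd at the 3 ages did not overlap between ages. Idi1, the isomerase that follows, was the exception at day 35. It read 8.41, 8.78 and 7.65 in the wild type and 8.10, 8.44 and 8.52 in the knockout, with differences of -0.31 and -0.33 log2 units at days 10 and 14 and of 0.87 at day 35. Hmgcs1, the HMG-CoA synthase, lay between 13.87 and 14.08 on all 6 arrays. Its probe ranked between the 4th and 13th brightest, where quantile normalization assigns values by rank, so its small differences say little; its raw signals ran from 14246 in the day 14 knockout to 18087 in the day 14 wild type.

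From squalene to cholesterol, the day 10 difference was largest for Dhcr7 and Cyp51. Dhcr7, the reductase that makes cholesterol from 7-dehydrocholesterol, read 8.94, 8.68 and 8.59 in the wild type and 7.64, 8.89 and 8.13 in the knockout. The day 10 knockout array was the lowest of the 6, at 2.46-fold below the wild type of that age. Cyp51, the lanosterol demethylase, read 9.44, 9.60 and 10.20 in the wild type and 8.42, 9.64 and 10.17 in the knockout. The genotypes differed by 2.02-fold at day 10 and by 0.03 and -0.02 log2 units at days 14 and 35.

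Msmo1, which oxidises the methyl groups at position C4 of the sterol ring, had 11.65, 11.69 and 12.19 in the wild type and 10.95, 11.69 and 12.27 in the knockout. Ebp, the sterol isomerase, had 9.58, 9.59 and 9.61 in the wild type and 8.93, 9.61 and 9.70 in the knockout. Both showed the same form as Cyp51, low on the day 10 knockout array alone, by 1.62-fold for Msmo1 and 1.57-fold for Ebp. Sqle, the squalene epoxidase, was 10.92, 11.39 and 11.56 in the wild type and 10.49, 11.46 and 11.41 in the knockout, a day 10 difference of -0.43 that did not reach 1.5-fold.

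The remaining members of these steps also stayed under 1.5-fold at each age on their brightest probes. Hsd17b7, a ketoreductase, differed by -0.49 log2 units at day 10, as signals of 10.11 against 10.60, and by -0.28 at day 14. Lss, which closes squalene epoxide into lanosterol, differed by -0.23 at day 10 and by -0.53 at day 35, where the knockout read 7.59 and the wild type 8.12. Nsdhl, a dehydrogenase of the C4 demethylation steps, differed by -0.11, -0.13 and -0.21 at the 3 ages. Nsdhl, Lss and Hsd17b7 were each lower in the knockout at all 3 ages.

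Among the enzymes that supply acetyl-CoA and build palmitate, Acss2 stood furthest apart. Acss2, which makes acetyl-CoA from acetate, read 10.31, 10.22 and 10.61 in the wild type and 9.31, 9.88 and 10.54 in the knockout, a difference of -0.999 log2 units at day 10. Aacs, which activates acetoacetate for lipid synthesis, read 10.72, 10.75 and 10.60 in the wild type and 10.10, 10.96 and 10.10 in the knockout. Its knockout signal was thus 10.10 at both day 10 and day 35 and above the wild type at day 14.

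The central enzymes of the route differed less at day 10. Acly, which cleaves citrate to acetyl-CoA, had a difference of -0.35, at 12.12 for the wild type and 11.76 for the knockout. Fasn, the fatty acid synthase, read 12.82, 12.79 and 12.20 in the wild type and 12.64, 12.81 and 12.02 in the knockout, a difference of -0.17 at day 10. Acaca, the acetyl-CoA carboxylase that makes malonyl-CoA, was level across all 6 arrays, between 10.57 and 10.90.

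Elovl1, which elongates saturated fatty acids to the very long chains of myelin sphingolipids, had the largest day 10 difference of the 30 genes. It read 9.97, 10.48 and 9.40 in the wild type and 8.66, 10.43 and 9.44 in the knockout, 2.49-fold lower at day 10 and level at the later ages. Both other Elovl1 probes were also lower at day 10, by -0.92 and -1.34, but they remained lower at day 14, by -1.02 and -1.06, where the brightest probe differed by -0.05. The day 14 genotype difference of Elovl1 thus depends on the probe.

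Elovl6, which lengthens palmitate to stearate, read 10.77, 11.03 and 10.44 in the wild type and 10.36, 10.99 and 10.16 in the knockout. Elovl5, which elongates polyunsaturated fatty acids, read 11.89, 11.95 and 12.49 in the wild type and 11.56, 11.75 and 12.54 in the knockout. The day 10 differences of -0.42 and -0.32 were both under 1.5-fold. Elovl7, another elongase, gave 8.69, 9.35 and 9.19 in the wild type and 8.54, 9.42 and 9.25 in the knockout, low on both day 10 arrays alike.

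Members with several probes did not give 1 answer at day 14. Of 11 other probes of 6 members, 5 gave a knockout minus wild-type difference more than 1.5-fold below that of the brightest probe, where 10.0% of 1377 other probes of all named genes did. At day 10 it was 1 of 11, against 9.80%, and at day 35 0 of 11, against 3.27%. The dimmer probe of Sqle differed by -1.39 at day 14, against 0.07 on the brightest, and those of Nsdhl by -0.90 and -0.91, against -0.13. The Nsdhl probes had raw signals of 66.4 and 62.5 in the day 14 knockout, near the array's median of 51.8, and those of Elovl1 had 286.6 and 171.0. Insig1 went the other way, at 0.85 on another probe against -0.27 on the brightest. Which transcripts these probes read is not known from the sources used here, and the cause was not tested.

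**Figure D2:**
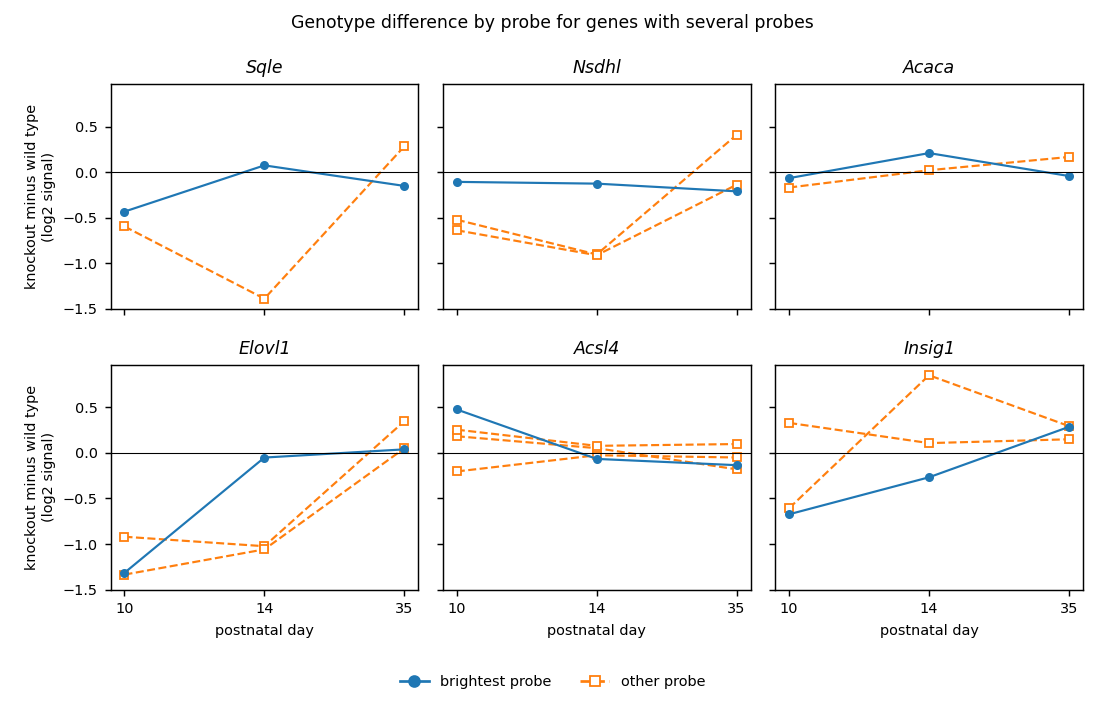
Knockout minus wild-type difference in log2 signal (vertical axis) at days 10, 14 and 35 for each probe of the 6 genes with several tested probes, the brightest as filled circles with a solid line and the others as open squares with dashed lines. The other probes of Sqle, Nsdhl and Elovl1 lie below their brightest probe at day 14, between -0.90 and -1.39.

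The desaturases, all 4 on chromosome 19, showed less of the day 10 pattern. Scd1, which puts a double bond into stearate and palmitate, read 12.39, 11.87 and 12.64 in the wild type and 11.80, 12.17 and 12.22 in the knockout. Its genotype difference changed sign, at -0.59, 0.30 and -0.41. Scd2, the related desaturase abundant in mouse brain, ranked between the 9th and 17th brightest probe and lay between 13.81 and 13.95 on all arrays, so that it carries the same limit as Hmgcs1. Fads2 differed by -0.11, -0.14 and 0.13. Fads1, which with Fads2 makes polyunsaturated fatty acids, was 1 of 2 members above 0 at day 10, at 0.17. At days 14 and 35 its normalized differences were 0.07 and 0.03. Its raw signals there were lower in the knockout, at 6029.6 against 6770.9 and 7530.6 against 7560.3.

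The other member above 0 at day 10 was Acsl4, which couples arachidonic and related fatty acids to coenzyme A. It read 7.87, 8.06 and 8.65 in the wild type and 8.35, 7.99 and 8.51 in the knockout, a day 10 difference of 0.48. Its 3 other probes differed by 0.26, 0.18 and -0.20 at that age.

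Of the regulators, Srebf2, the gene of SREBP-2, read 8.65, 8.73 and 8.74 in the wild type and 8.14, 8.97 and 8.07 in the knockout. The wild type hardly moved over the 3 ages, while the knockout differed from it by -0.51 and -0.68 log2 units at days 10 and 35 and by 0.23 at day 14. Insig1, the sterol sensor and SREBP target that retains SREBPs in the endoplasmic reticulum, read 6.01, 6.08 and 7.49 in the wild type and 5.34, 5.82 and 7.77 in the knockout. It was 1.59-fold lower in the knockout at day 10 and high in both genotypes at day 35. Its other probes differed by -0.61 and 0.33 at day 10, the latter on a probe detected on 2 arrays.

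**Figure D3:**
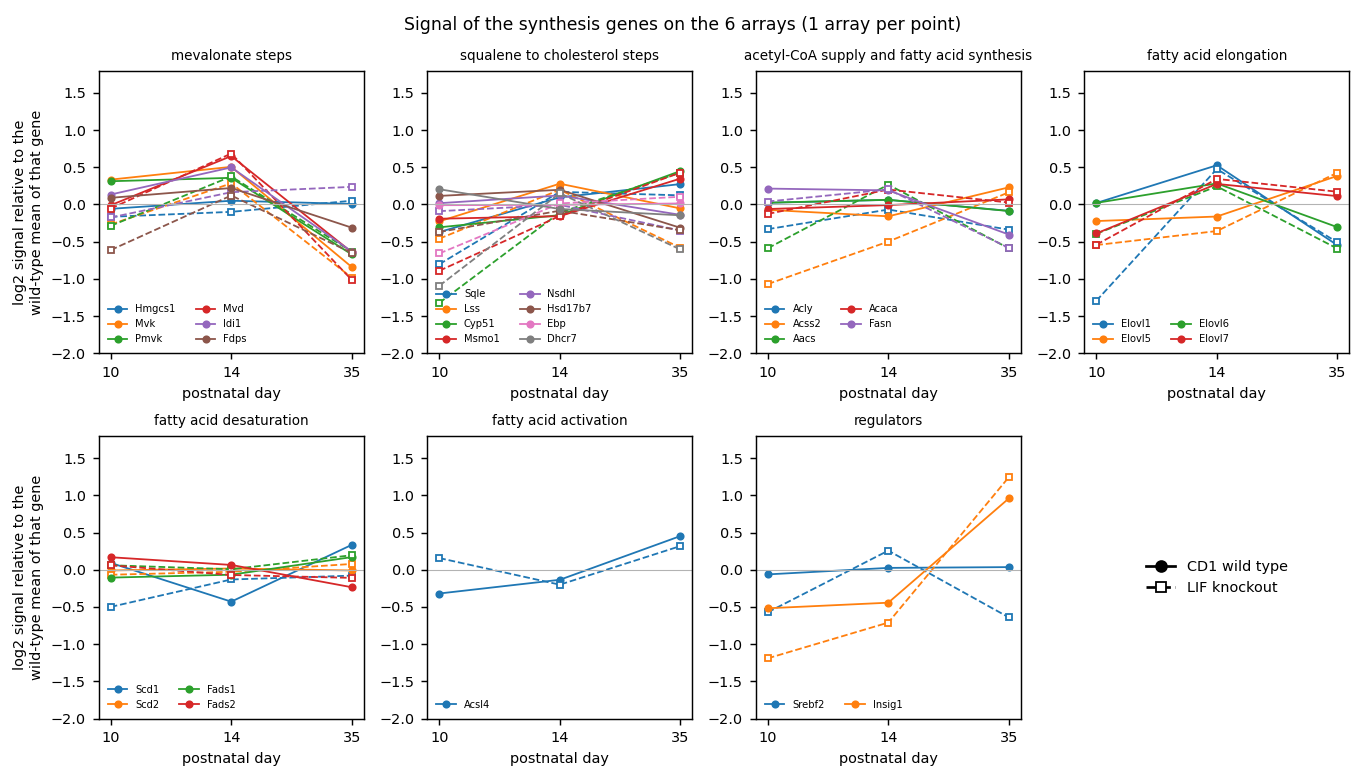
Normalized log2 signal of each gene minus its own wild-type mean (vertical axis) at postnatal days 10, 14 and 35, by step; filled circles with solid lines are the CD1 wild type and open squares with dashed lines the LIF knockout, 1 array per point. The day 10 knockout points of Cyp51, Elovl1, Insig1, Dhcr7 and Acss2 lie lowest of their genotype and age, the mevalonate enzymes Mvk, Pmvk and Mvd are lower at day 35 in both genotypes, and Insig1 is higher there.

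At day 14 the genotypes were close, with 14 of 30 genes above 0, against 50.5% of all probes, and 16 below, against 49.3%, a median of -0.04, and 0 members past 1.5-fold in either direction, against 3.25% of all probes higher and 3.45% lower. Day 35 gave a median of -0.05, with 1 member higher by over 1.5-fold (Idi1, against 4.73% of probes) and 1 lower (Srebf2, against 4.17%). The day 10 knockout array held the lowest signal of the 6 for 15 of 30 genes, against 20.0% of all probes, and the highest for none, against 22.0%. The day 10 difference exceeded those of both other ages in size for 20 of 30 genes, against 44.2% of all probes. On normalized signals of the brightest probes, 8 genes were lower in the knockout at all 3 ages, against 12.3% of all probes. These were Mvk, Fdps, Lss, Nsdhl, Hsd17b7, Acly, Acss2 and Elovl6.

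The fitted tests of genotype called none of these differences. Over the 3 ages, limma's moderated test with day as a factor and Benjamini-Hochberg adjustment called 0% of all probes and 0 members, with 520 probes and 0 members at an unadjusted p under 0.05 and a lowest adjusted p among members of 0.989. The term for day 10 against days 14 and 35, which rests on 1 residual degree of freedom, also called 0% of probes and 0 members, with 735 probes at an unadjusted p under 0.05. The 4 members among those were Elovl1, at -1.31 ± 0.27 (SE), Dhcr7 at -1.18 ± 0.39, Cyp51 at -1.02 ± 0.27 and Msmo1 at -0.74 ± 0.27 log2 units, all with an adjusted p of 0.886 in that limma fit.

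Between days 10 and 14 most of the knockout signals were higher at the later age. In the knockout 27 of 30 genes were above 0, day 14 minus day 10, against 50.5% of all probes, with a median change of 0.56 log2 units, and 14 were higher by over 1.5-fold, against 9.18% of all probes. On normalized signals of the brightest probes all 14 sterol enzymes were among the higher, with a median of 0.67. Dhcr7 led at 1.24 (2.37-fold), with Cyp51 at 1.22 (2.32-fold). The raw knockout signals of Hmgcs1, Idi1, Nsdhl and Hsd17b7 were lower at day 14, and those of the other sterol enzymes higher. Nsdhl went from 2994.9 to 2378.7, and its other probes changed by -0.44 and -0.51 log2 units after normalization. On its brightest probe Elovl1 changed by 1.77, or 3.42-fold, but its other probes gave 0.59 and 0.63. In the wild type 25 of 30 genes were also above 0, against 49.3% of all probes, and 13 of 14 sterol enzymes, but the median was 0.08 and 2 genes were higher by over 1.5-fold, Mvd at 0.66 and Elovl7 at 0.67, against 5.87% of all probes. These changes share their day 10 and day 14 arrays with the genotype differences above. Without normalization between arrays the knockout median was 0.19, where all probes had -0.32, and thus 0.51 relative to all probes. In the authors' deposited series table, where all probes had a median of -0.18 in the wild type and -0.17 in the knockout, the gene medians were -0.13 and 0.28, which turns the direction for the wild type; relative to all probes they were 0.05 and 0.45.

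Marker lists moved between the same knockout arrays. From day 10 to day 14, myelin genes had a median of 1.17, with 14 of 15 above 0 and summed raw signals of 71098 and 85594. Meningeal and fibroblast markers had -0.91, with 10 of 10 below 0, fat cell markers -1.77 with 6 of 8 below, red blood cell genes -2.89 with 4 of 4 below and cell cycle genes -1.03 with 15 of 15 below. In the wild type the same medians were 0.34, -0.24, -0.15, -0.99 and -0.99. Their part in the change of the synthesis genes was not tested.

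With both genotypes taken as replicates of an age, day 14 minus day 10 gave 0% of probes and 0 members past an adjusted p of 0.05 in limma, with 1718 probes and 6 members at an unadjusted p under 0.05. Those 6 were all higher at day 14, at 1.14 for Elovl1, 0.78 for Elovl7, 0.72 for Sqle, 0.70 for Mvd, 0.58 for Lss and 0.45 for Elovl6 log2 units, and the lowest adjusted p among members was 0.294.

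By day 35 members had changed in both directions. Mvk, Mvd and Fasn fell from both earlier ages, Insig1 rose from both, and Sqle, Cyp51, Msmo1 and Elovl5 rose from day 10. From day 14 to day 35, 5 members fell, against 7.12% of all probes, and 1 rose, against 7.74%. Mvd fell by 1.496 ± 0.18 log2 units (SE; adjusted p = 0.018 in limma), Mvk by 1.31 ± 0.19 (adjusted p = 0.0215) and Pmvk by 1.02 ± 0.22 (adjusted p = 0.0367). Each was lower at day 35 in both genotypes. Elovl6 fell by 0.71 ± 0.17 (adjusted p = 0.0491) and Fasn by 0.69 ± 0.16 (adjusted p = 0.0447), close to the threshold. Insig1 rose by 1.68 ± 0.25 (adjusted p = 0.0223), from 6.08 to 7.49 in the wild type and from 5.82 to 7.77 in the knockout.

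From day 10 to day 35, 3 members fell, against 10.2% of all probes, and 5 rose, against 10.6%. Mvk, at -0.95 ± 0.19 (adjusted p = 0.0258), Mvd, at -0.80 ± 0.18 (adjusted p = 0.0341), and Fasn, at -0.62 ± 0.16 (adjusted p = 0.0467), fell in this limma fit as they did from day 14. Insig1 rose by 1.96 ± 0.25 log2 units (adjusted p = 0.0118). Its raw signals at days 10 and 14 lay between 73.7 and 99.9, near the arrays' medians of 51.8 to 61.9. Another Insig1 probe rose by 1.31 in the wild type and 2.21 in the knockout. The remaining probe, detected on 2 arrays, changed by -0.28 and -0.46. Of the sterol enzymes after squalene, Cyp51 rose by 1.25 ± 0.29 (adjusted p = 0.0369), Msmo1 by 0.93 ± 0.24 (adjusted p = 0.0453) and Sqle by 0.79 ± 0.19 (adjusted p = 0.0392). Elovl5 rose by 0.79 ± 0.17 (adjusted p = 0.0323). In the wild type alone, Cyp51 and Msmo1 went from 9.44 to 10.20 and from 11.65 to 12.19, and in the knockout from 8.42 to 10.17 and from 10.95 to 12.27.

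Marker lists changed over the same interval. From day 10 to day 35, 13 of 15 cell cycle genes fell in this limma fit, with a median of -1.58, 7 of 15 myelin genes rose, with a median of 0.82, and 4 of 10 meningeal and fibroblast genes fell, with a median of -0.87. Of all probes 10.2% fell and 10.6% rose. From day 14 to day 35, 4 of 15 cell cycle genes fell and 1 rose, 1 of 15 myelin genes rose, and 1 of 10 meningeal genes rose and 1 fell. Of all probes 7.12% fell and 7.74% rose, so the myelin and meningeal counts were near those shares. Skeletal muscle genes had medians of -2.74 in the wild type and 1.32 in the knockout from day 10 to day 35. The arrays' control for 18S ribosomal RNA had raw signals of 1575.5 and 1654.8 at day 35 and of 3060.6 to 3812.3 at the earlier ages. The part of these in the changes of the synthesis genes was not tested.

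The share of members called, 6 of 30 and 8 of 30, stands beside 14.9% and 20.8% of all probes, so that the list as a whole was called about as often as other probes. These calls also rest on 2 residual degrees of freedom. With 1 array left out, which leaves 1, the members called from day 14 to day 35 were 2 without the day 35 wild type and 0 without any of the other 5. From day 10 to day 35 they were 5 without either day 14 array, 1 without either day 35 array and 0 without either day 10 array. The count over all probes fell too, to between 0 and 946 of 2055 and between 0 and 2420 of 2875. Insig1 from day 10 to day 35 remained a call without 4 of the 6 arrays, more often than any other member.

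**Figure D4:**
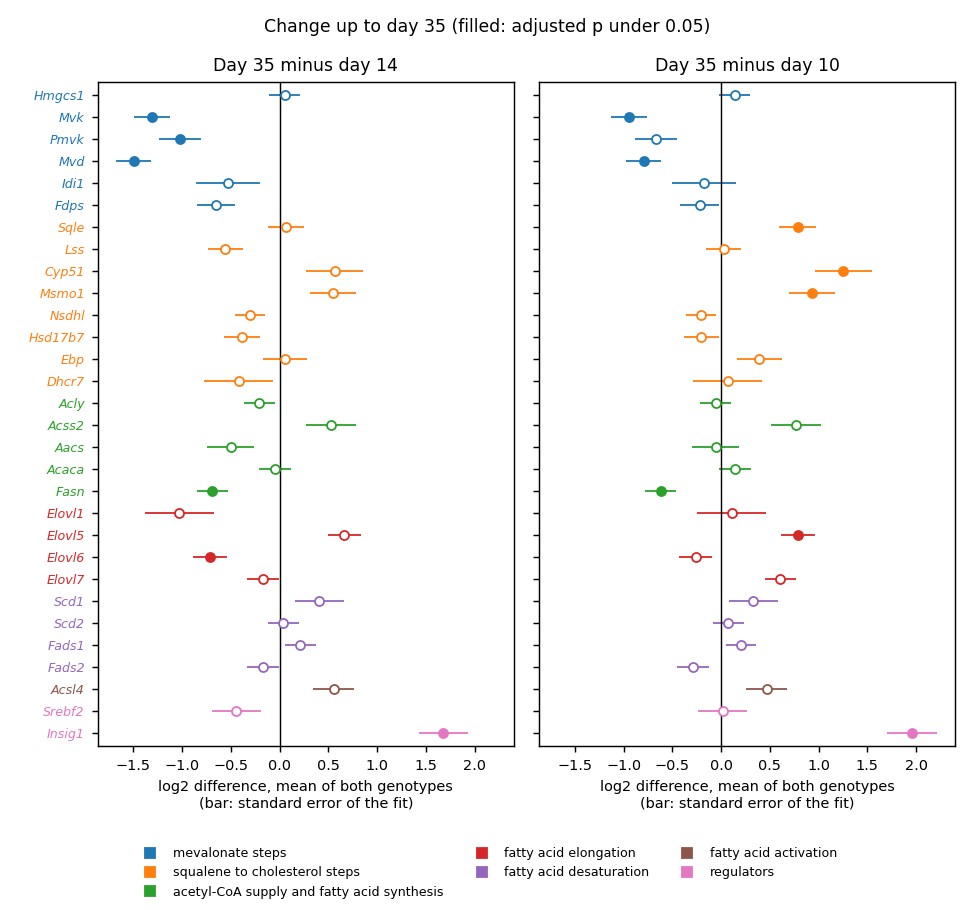
Fitted log2 difference between ages, averaged over both genotypes (horizontal axis), with its standard error (bars) for the 30 genes; filled points have an adjusted p under 0.05 in limma. Mvk and Mvd are filled below 0 in both panels, Insig1 is filled at 1.68 and 1.96, and Sqle, Cyp51, Msmo1 and Elovl5 are filled above 0 in the day 10 panel.

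Other genes of these pathways were spread to both sides of 0 at day 10. The median was -0.02 over 4 further measured sterol synthesis genes, 0.09 over 13 genes of sterol uptake, transport and efflux, and -0.29 over 13 further fatty acid genes. Lipa, the lysosomal lipase, was higher in the knockout at 8.78 against 7.25, and Nr1h3, the liver X receptor alpha, at 6.09 against 5.28. Fabp7, a fatty acid carrier of glial precursors, read 7.11 against 6.13, and Thrsp, an activator of lipid synthesis, 7.30 against 6.43. Thrsp also belongs to the fat cell markers given below. Acsbg1, an acyl-CoA synthetase of the brain, was lower in the knockout at 5.49 against 6.45. Also lower were Tecr, the reductase that ends each elongation cycle, at 10.79 against 11.58, Slc25a1, the mitochondrial citrate carrier, at 7.67 against 8.40, and Cyp27a1, the sterol 27-hydroxylase, at 7.31 against 8.03. Raw signals, knockout against wild type, were 107.8 against 69.7 for Nr1h3 and 79 against 118.5 for Acsbg1, with array medians of 61.9 and 61. Of the 13 further fatty acid genes, 4 were higher and 3 lower by over 1.5-fold, and 9 were below 0.

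From day 10 to day 35, where 10.6% of all probes rose and 10.2% fell, 2 of the 4 further sterol genes rose, Mbtps1, the site-1 protease that releases SREBPs, by 1.001 (adjusted p = 0.017 in limma), and Insig2, a paralog of Insig1, by 1.11 (adjusted p = 0.0384). Of the 13 uptake and efflux genes, 2 rose and 3 fell. Abcg1, a sterol exporter, rose by 2.19 log2 units (adjusted p = 0.00912), with 7.83 and 8.21 at day 10 and 10.24 and 10.18 at day 35 in wild type and knockout, and Cyp27a1 rose by 0.90 (adjusted p = 0.0454). Stard4, a sterol carrier, Scarb1, the HDL receptor, and Lrp1, a lipoprotein receptor, fell by 0.96, 0.81 and 0.63. Of the 13 further fatty acid genes, 2 rose, Acsl6 by 1.27 and Acsbg1 by 1.22, and 2 fell, Fabp7 by 1.23 and Elovl4, which makes the longest chains, by 1.97 (adjusted p = 0.00877), from 9.36 and 8.94 to 7.27 and 7.10. From day 14 to day 35, 7.74% of all probes rose and 7.12% fell. Of the 4 further sterol genes 1 rose, Mbtps1, by 0.66 (adjusted p = 0.0459 in limma). Of the 13 uptake and efflux genes 1 rose, Abcg1, by 1.79 (adjusted p = 0.0175), and 2 fell. These were Cyp46a1, the cholesterol 24-hydroxylase, by 1.32 (adjusted p = 0.0177), and Stard4, by 1.23 (adjusted p = 0.0215). Of the 13 further fatty acid genes 1 fell, Elovl4, by 1.78 (adjusted p = 0.0175).

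Markers of cell types moved with the day 10 difference. Myelin and mature oligodendrocyte genes had a median of -1.18, with 13 of 15 genes below 0 and 10 lower by over 1.5-fold, and a summed raw signal of 71098 (knockout) against 88644 (wild type), with 14 and 15 of them detected. Precursor markers had a median of -0.17 over 7 genes, and astrocyte markers 0.23 over 10. Fat cell markers were higher, with a median of 1.07 over 8 genes and a summed signal of 5344 against 1792, and Ucp1, the uncoupling protein of brown fat, read 2525.0 against 104.0. Endothelial markers had a median of 0.49 over 9 genes, meningeal and fibroblast markers 0.44 over 10, cell cycle genes 0.44 over 15, photoreceptor genes 0.82 over 7, red blood cell genes 0.90 over 4 and skeletal muscle genes -0.60 over 12. At day 14 the myelin genes lay between -0.65 and 2.23, with 7 above and 6 below 0; their median of 0.00 is that of Mbp and Mag, whose bright probes get their values by rank. At that age the fat cell median -0.44, the microglia and macrophage median 0.87 over 11 genes, and the photoreceptor median 1.79. The part of these cells in the differences of the synthesis genes was not tested.

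**Figure D5:**
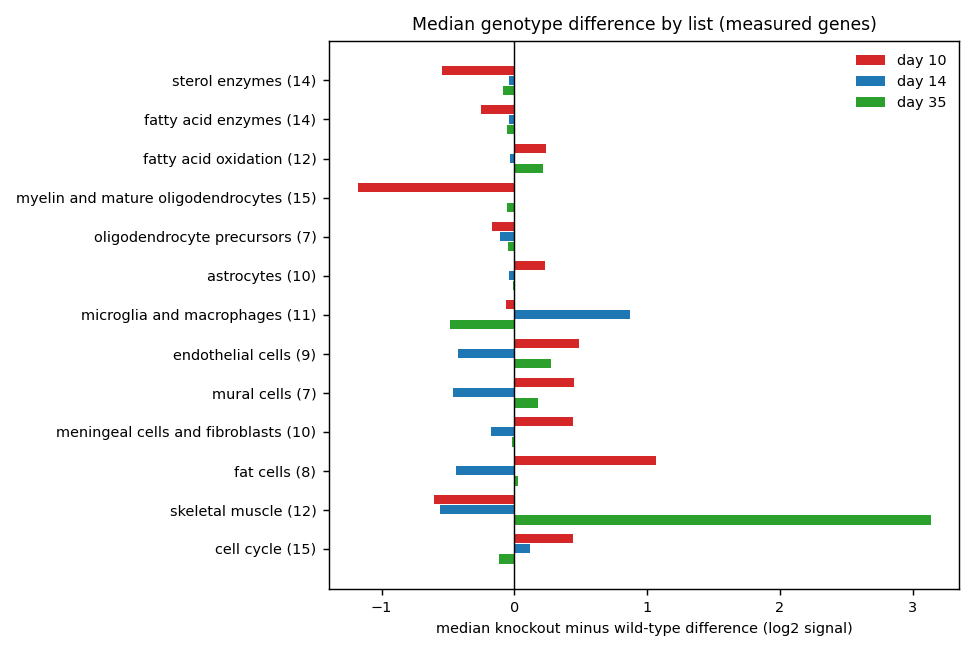
Median knockout minus wild-type difference in log2 signal (bars, horizontal axis) at days 10, 14 and 35 for the sterol and fatty acid enzymes, fatty acid oxidation and marker lists, with the number of measured genes in brackets and 1 array per genotype and age, so without error bars. At day 10 the sterol enzymes (-0.54) and myelin markers (-1.18) lie below 0 while fat cell markers (1.07) lie above it, and skeletal muscle reaches 3.14 at day 35.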

How the data were processed

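Whole optic nerve RNA was amplified, labelled with biotin and hybridised to 1-colour MouseRef-8 BeadChips, per the labels' protocols and the file headers. The deposited per-array files hold mean bead intensity for 24611 rows, exported from BeadStudio 1.5.0.34 without normalization, per the file headers. A deposited detection score stands beside each intensity and was taken as 1 minus the detection p-value. In contrast, the authors' deposited series table holds intensity values scaled by 1 factor per array, with 15646 of 24613 probes blank, and the sources used here do not give the rule.

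Table probes, which a platform annotation names, were linked to file rows by their intensities within 0.06 signal units. Of 8967 probes with values, 8934 were linked and 8047 had 1 gene symbol. Of 2444 with a gene number in the design identifier, 97.5% had the same number in the annotation. In limma 3.58.1 (R 4.3.3), intensities were corrected by normexp with an offset of 16, quantile normalized and taken to log2. The 13827 probes with a detection p below 0.05 on at least 2 arrays were fitted with lmFit and eBayes, two-sided, with day and genotype as terms (2 residual and 3.68 prior degrees of freedom). The day 10 term was added in another fit. P-values were Benjamini-Hochberg adjusted over all 13827 probes, with a threshold of 0.05, and the fits were tested on simulated data. Single-array differences were counted past 1.5-fold, or 0.585 on the log2 scale.

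The members and lists were chosen with earlier results of these data known. Every measured member is named. Of the other pathway genes, those past the test or past 1.5-fold in the comparison described are named, the 6 of largest difference a comparison, and of marker lists the median and up to 3 genes. Beyond this rule, Ucp1, Eif2s3y, Kdm5d, Tecr, Slc25a1, Insig2, Mbtps1, Cyp27a1, Stard4, Scarb1, Lrp1, Hadh and Acadm were named after their values were seen. Lif was not used to check the genotypes, as the sources used here do not say where its probe lies in the allele. Motifs were searched with Python 3.11.15. Alternatives were another offset, no background correction, no normalization, median scaling, other detection filters, the authors' table, means over probes, an intensity trend, no genotype term in the age fit, and leaving out ages or arrays.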

Additional observations from a re-analysis of the deposited data

How the results depend on the processing

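No paired analysis was possible because the labels give no replicate numbers and each group has 1 array, other than the comparison within ages that the genotype fit makes with day as a factor. At day 10, 28 of 30 members and 14 of 14 sterol enzymes were below 0. These counts were 21 and 12 without normalization between arrays and 27 and 13 in the authors' table. They were unchanged under the other alternatives that give single-age values. Without normalization between arrays, members lower by over 1.5-fold at day 10 numbered 4, the sterol median was -0.36, the day 14 genotype median -0.29, the knockout median from day 10 to day 14 0.19, the probes called from day 14 to day 35 1064 and those of the day 10 term 4, none of them a member. In the authors' table the medians from day 10 to day 14 were -0.13 in the wild type and 0.28 in the knockout, and the probes called from day 14 to day 35 numbered 1179. With no detection filter, which added dim probes to the adjustment, day 35 minus day 14 had 1079 probes and 3 members and day 35 minus day 10 had 1904 and 5. Genotype over the ages had 1 probe without day 14 and 1 without day 35, and day 14 minus day 10 had 7 without day 35; day 35 minus day 10 had 5 members without day 14 (the age fits without the age not compared, and the fits without an array, were added after seeing the data). Leaving out each array gave 0 to 1 probes for genotype, 0 to 7 for day 14 minus day 10, 0 to 946 probes and 0 to 2 members for day 35 minus day 14, and 0 to 2420 probes and 0 to 5 members for day 35 minus day 10. Those fits have 1 residual degree of freedom. The day 10 term without an age was not run, since that fit leaves no residual degrees of freedom or cannot hold the term. Counted per gene and alternative, 805 single-gene values or calls stayed the same. Of the values, 59 moved by more than the median residual SD of 0.177 log2 units, and 88 calls were lost. The 805 pools untested single-age values with calls, so the 88 are a larger share of the calls alone. The 1-array design limits every single-age value.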

Other observations

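Genes of fatty acid oxidation belong to the opposite route. Of 12 measured genes, 3 rose from day 14 to day 35 and the same 3 from day 10, against 7.74% and 10.6% of all probes that rose in limma, and the other 9 did not pass the test. Acadm, the medium-chain dehydrogenase, read 8.54, 8.33 and 9.18 in the wild type and 8.24, 8.29 and 9.20 in the knockout, and rose by 0.88 log2 units from day 14 (adjusted p = 0.0311). Acadl, the long-chain dehydrogenase, rose by 1.68 (adjusted p = 0.0396) and Hadh, the 3-hydroxyacyl-CoA dehydrogenase, by 1.04 (adjusted p = 0.0367). Acadl was detected on 5 arrays, and its raw signals at days 10 and 14 were 43.2 to 78, near the arrays' medians of 51.8 to 61.9. At day 10 the list had a median genotype difference of 0.24, and Hadha, a subunit of the trifunctional protein, was at -0.91. Hadha had raw signals of 111.6 in the wild type and 76.5 in the knockout, with array medians of 61 and 61.9. Fat cell markers were higher on the same array, and the part of fat cells in these values was not tested.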
